A study of Mus musculus with 12 samples.

Results

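The adipocyte genes followed here are the 10 genes Adipoq, Plin1 (Plin on the array), Cidec, Fabp4, Lep, Retn, Cfd, Lipe, Lpl and Ucp1. They were chosen by name, as every non-control probe that carries 1 of these names, which gave 15 of the 41174 probes on the array. The names were chosen with earlier results of these data known. Their levels were followed in total RNA of the urinary bladder on 12 Agilent 1-colour (Cy3) mouse arrays. All 10 genes were among the 18394 genes tested, although Ucp1 was well above background on only 4 of the 12 arrays, which is the minimum for a gene to be tested. The other 9 genes were well above background on 11 or 12 arrays.

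The samples came from wild-type C57BL/6 females aged 10 weeks. After 2 weeks of acclimation to 12 h of light and 12 h of dark the mice were placed in constant darkness and killed at circadian time (CT) 0, 4, 8, 12, 16 or 20 h. Each of the 6 times had 2 arrays, called replicates 1 and 2; the series' design text leaves out CT16, which the labels of 2 arrays give. No label states that the arrays held separate mice, so each p-value below measures the spread between arrays, which may be technical. The tissue label is urinary bladder and names no fat, so the site of the adipocytes was not given and was not tested. The bladder's own markers were present: all 7 urothelial and all 7 smooth muscle genes of the marker lists were well above background on all 12 arrays, with a mean above the 75th percentile of the array.

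White adipocytes store triglyceride in 1 large lipid droplet, release fatty acids from it when energy is short, and secrete hormones into the blood. In the bladder, fat lies outside the muscle coat, and the bladder wall itself consists of urothelium, connective tissue and smooth muscle. Plin1 and Cidec coat the droplet, Adipoq, Lep, Retn and Cfd encode secreted proteins, Lipe and Lpl encode the lipases that act inside the adipocyte and on the vessel wall, Fabp4 encodes a fatty acid carrier, and Ucp1 is the uncoupling protein of brown fat.

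The promoters of 8 of the 10 genes were matched in the RefSeq promoter table (GRCm38.p6), which gives 250 bases before and 50 after each gene's start and held 10 promoters for these genes. The 4 stretches below are shown because Lep, Plin1, Cidec and Adipoq moved together over the arrays and, among the genes with a matched promoter that did, are those that hold a match to the searched C/EBP motif or to the CCAAT box. C/EBP factors, whose motif is marked in the first 3, and PPAR gamma are the known regulators of adipocyte differentiation. Capitals mark a match to TTGCNCAA in the Lep, Plin1 and Cidec stretches and to CCAAT, or ATTGG on the other strand, in the Adipoq stretch. They are written 5′ to 3′ on the gene's strand.
Lep, chr6:29060121-29060220, plus strand: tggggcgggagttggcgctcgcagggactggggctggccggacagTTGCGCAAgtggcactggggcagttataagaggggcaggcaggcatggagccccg
Plin1, chr7:79732777-79732876, minus strand: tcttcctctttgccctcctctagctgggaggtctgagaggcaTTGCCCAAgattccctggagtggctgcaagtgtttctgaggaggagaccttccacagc
Cidec, chr6:113434915-113435014, minus strand: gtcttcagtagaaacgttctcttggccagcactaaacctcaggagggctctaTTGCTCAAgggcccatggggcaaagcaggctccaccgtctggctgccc
Adipoq, chr16:23146436-23146535, plus strand: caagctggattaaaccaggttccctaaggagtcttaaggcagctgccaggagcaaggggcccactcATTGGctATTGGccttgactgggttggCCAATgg
The C/EBP match began 55 bases before the Lep start, 58 before the Plin1 start and 198 before the Cidec start. On both strands TTGCNCAA stood in 2.94% of all 32851 promoters of this length, and the full palindrome TTGCGCAA, which is a case of it and was found in Lep, stood in 0.183%. CCAAT, found 3 times in Adipoq, stood in 37.4% of all promoters. CACGTG stood in the Lipe promoter and in 7.15% of all, and the PPAR half-site AGGTCA in the Ucp1 promoter and in 16.3% of all. The direct repeat AGGTCANAGGTCA was found in none of the 10 promoters and in 0.0396% of all. Retn and Cfd, which moved with Adipoq too, held none of these motifs, and Lipe held no TTGCNCAA. A match describes letters in this window and says nothing of binding.

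Levels are given as log2 of the processed signal minus the 75th percentile of the same array, so that 0 equals that percentile. Adipoq, which encodes the insulin-sensitising hormone adiponectin, was read by a probe at chr16:22816125-22816184 on the plus strand of mm7, the build of the array file. Its level was 4.81 and 1.38 at CT0, 5.72 and 3.93 at CT4, 3.92 and 4.21 at CT8, 4.42 and 5.84 at CT12, 4.94 and 4.63 at CT16, and 3.04 and 3.84 at CT20, with replicate 1 first at each time. CT12 replicate 2 was highest and CT0 replicate 2 lowest, 21.9-fold apart. Replicate 1 of CT0 was 10.8-fold above replicate 2 of the same time.

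**Figure D1:**
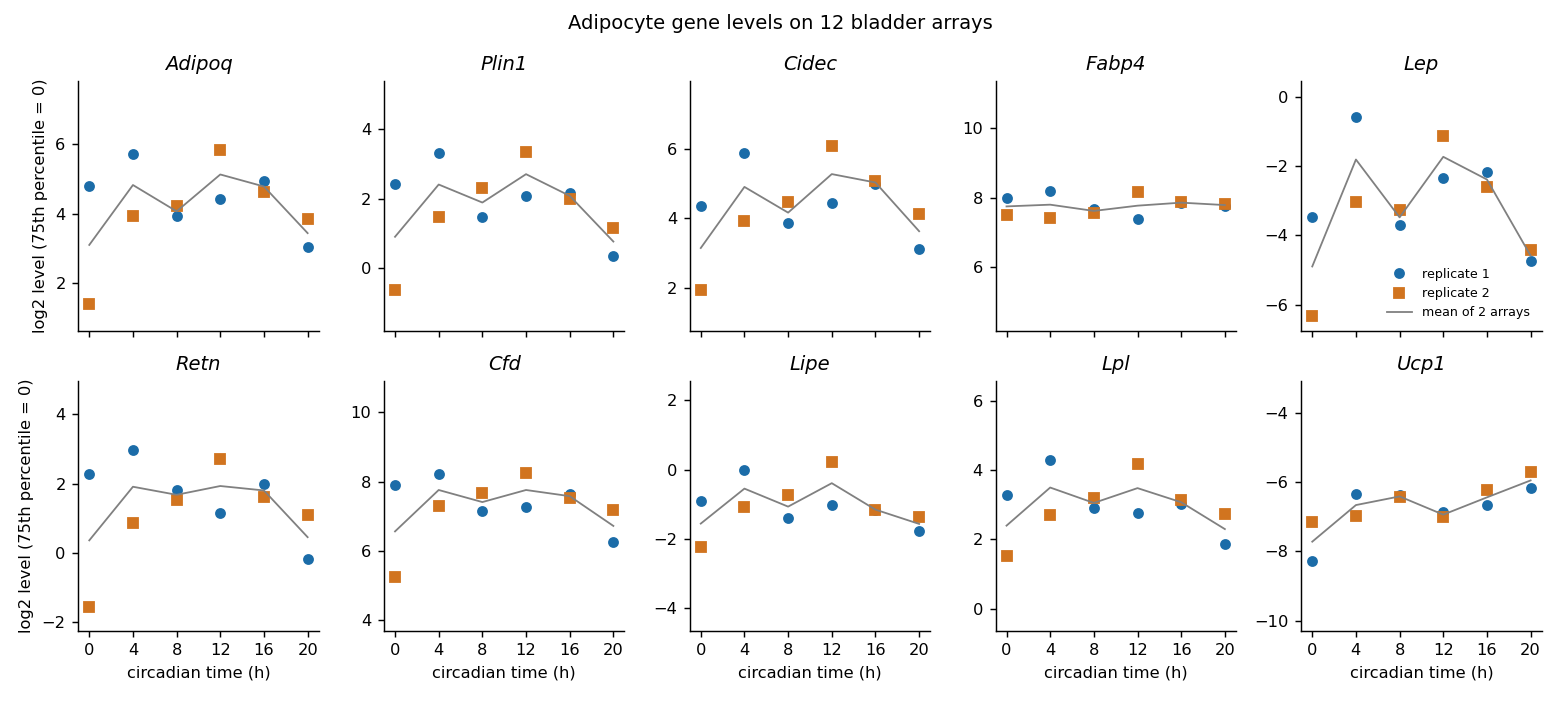
Log2 level of each adipocyte gene (y axis, array 75th percentile = 0) against circadian time in h (x axis). Circles are replicate 1, squares replicate 2 and lines join the means of 2 arrays. Every panel spans the same log2 range, so that the gap between the squares and circles at CT0 and CT4 can be compared between genes, while Fabp4 stays between 7.38 and 8.19.

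Plin1, which encodes the perilipin that guards the droplet against lipases, was read at chr7:75590467-75590526 on the minus strand (mm7). Its level was 2.43 and -0.63 at CT0, 3.33 and 1.48 at CT4, 1.45 and 2.32 at CT8, 2.07 and 3.34 at CT12, 2.16 and 1.99 at CT16, and 0.36 and 1.16 at CT20. The ends were the same arrays as for Adipoq, 15.7-fold apart. Cidec, which promotes the fusion of small droplets into a large one, was read at chr6:113585627-113585686 on the minus strand (mm7). Its level was 4.35 and 1.95 at CT0, 5.88 and 3.94 at CT4, 3.86 and 4.47 at CT8, 4.46 and 6.10 at CT12, 5.0 and 5.07 at CT16, and 3.13 and 4.13 at CT20. CT12 replicate 2 was again highest and CT0 replicate 2 lowest, 17.8-fold apart.

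Lep encodes leptin, the hormone that reports fat stores to the brain. It was read on 10 spots of 1 probe at chr6:29005380-29005439 on the plus strand (mm7), with a median SD between spots of 0.08 log2 units. Its level was -3.49 and -6.31 at CT0, -0.58 and -3.05 at CT4, -3.71 and -3.26 at CT8, -2.35 and -1.13 at CT12, -2.17 and -2.61 at CT16, and -4.75 and -4.43 at CT20. CT4 replicate 1 was highest. CT0 replicate 2 was lowest and not well above background, and without it the highest array was 18-fold above the next lowest one, CT20 replicate 1.

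Retn encodes resistin, which in mice is secreted by adipocytes. The brighter of its 2 probes, whose array annotation spans chr8:3618519-3619340 on the plus strand (mm7), had a level of 2.28 and -1.55 at CT0, 2.96 and 0.86 at CT4, 1.82 and 1.54 at CT8, 1.15 and 2.71 at CT12, 1.98 and 1.62 at CT16, and -0.18 and 1.09 at CT20. The highest array was CT4 replicate 1 and the lowest CT0 replicate 2, 22.8-fold apart, and the difference between its 2 probes varied over the arrays with an SD of only 0.04 log2 units. Cfd encodes adipsin (complement factor D), a serine protease of the alternative complement pathway. At chr10:79672573-79672632 on the plus strand (mm7) it had a lowest level of 5.24 on CT0 replicate 2, a median of 7.41 and a highest level of 8.25 on CT12 replicate 2, an 8.08-fold range.

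Lipe, the hormone-sensitive lipase, had a lowest level of -2.22 on CT0 replicate 2, a median of -1.12 and a highest level of 0.23 on CT12 replicate 2, a 5.48-fold range, on the brighter of its 2 probes. Lpl, the lipase that frees fatty acids from circulating lipoproteins and is also made by muscle, was read at chr8:67361126-67361185 on the plus strand (mm7). Its level was 3.28 and 1.51 at CT0, 4.28 and 2.71 at CT4, 2.90 and 3.20 at CT8, 2.77 and 4.19 at CT12, 3.01 and 3.13 at CT16, and 1.86 and 2.74 at CT20. Lpl spanned 6.80-fold, with the same arrays at the ends as Retn. The paired probes of Lipe and of Lpl followed each other, with an SD of their difference of 0.09 and 0.13 log2 units.

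Fabp4, also made by endothelium and macrophages, varied least of the 10 genes. Its representing probe had a level of 7.99 and 7.51 at CT0, 8.19 and 7.41 at CT4, 7.68 and 7.55 at CT8, 7.38 and 8.16 at CT12, 7.83 and 7.88 at CT16, and 7.77 and 7.81 at CT20. CT4 replicate 1 and CT12 replicate 2 were its highest 2 arrays too, but its lowest was CT12 replicate 1, and the whole range was 1.75-fold. Its other 2 probes spanned 1.58-fold and 2.54-fold. Ucp1 was well above background on CT4 replicate 1, CT16 replicate 2 and both CT20 arrays, so that at CT0, CT8 and CT12 its level has only an upper bound. Its measured values were -6.36 on CT4 replicate 1, -6.22 on CT16 replicate 2, and -6.19 and -5.73 at CT20.

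The same arrays thus stood at the ends for most of the genes. On the probe that stood for each gene, CT0 replicate 2 was lowest for 8 of the 10 genes. CT20 replicate 1 was the second lowest for the same 8, that is for all but Fabp4 and Ucp1. CT4 replicate 1 and CT12 replicate 2 were the highest 2 arrays for 9 genes, all but Ucp1. At CT0 the 2 arrays of these 8 genes differed by 1.33 to 3.83 log2 units, with replicate 1 higher, and at CT4 by 0.93 to 2.47, again with replicate 1 higher. At CT12 they differed by 0.99 to 1.64 with replicate 2 higher. At CT16 the 2 arrays lay within 0.44 of each other for all 8 genes.

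**Figure D2:**
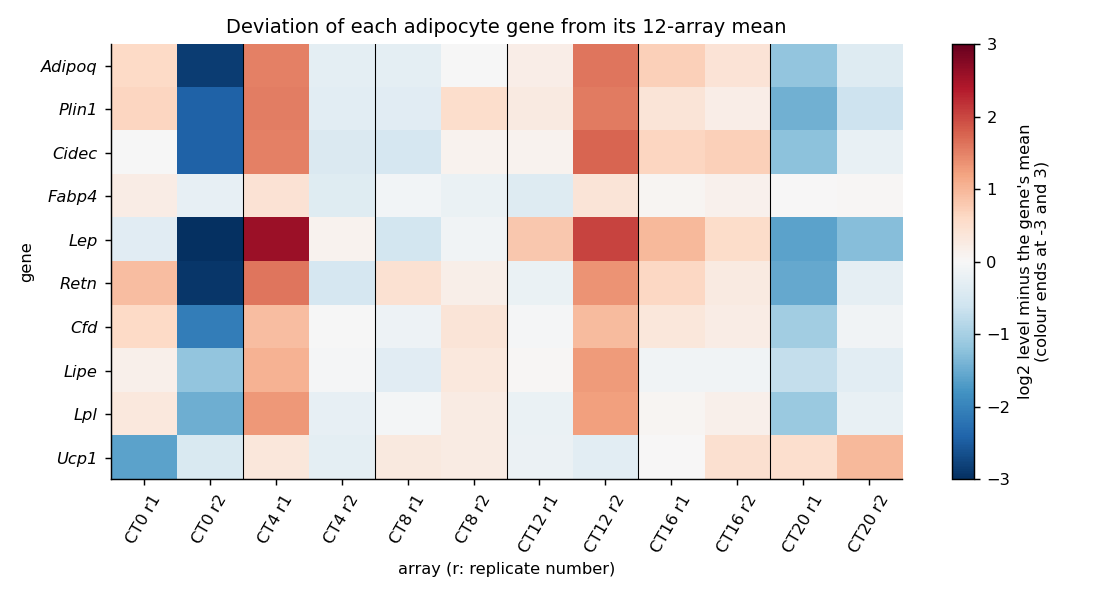
Each cell is the log2 level of an adipocyte gene (rows) on an array (columns, in order of circadian time) minus the gene's mean over 12 arrays. Blue is below and red above that mean, and the colour ends at -3 and 3. The CT0 replicate 2 column is the darkest blue for 8 genes, and the CT4 replicate 1 and CT12 replicate 2 columns are the reddest for 9.

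CT0 replicate 2 also stood apart in other measures. It had 228 spots marked as outliers, against 55 to 83 on the other 11 arrays. Its smooth muscle marker list averaged 0.44 log2 units above that list's mean over 12 arrays, against -0.24 to 0.17 on the other arrays. The urothelial marker list averaged -0.20 there and was lowest on another array, CT12 replicate 1, at -0.47. Of that list, Upk3a (uroplakin 3a, a plaque protein of the urothelium) was at its lowest level on CT0 replicate 2, 6.53, against a median of 7.60 over the 12 arrays. Upk2 was at 6.04 there, against a median of 6.17. The part of these measures in the adipocyte gene levels was not tested, and results are given below without this array where it matters. In whole-tissue RNA, fewer adipocytes and less of these transcripts per adipocyte cannot be told apart.

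Whether the adipocyte genes followed the circadian time was asked with a 24 h wave fitted in limma and with a limma test of any difference between the 6 times. None of the 10 genes passed either test, but so few of all genes passed, as given below, that 0 of 10 is near the share of all genes. For the wave, the lowest adjusted p in limma was 0.407, for Lep, and the highest 0.921, for Fabp4, and 0 of 10 had an unadjusted p under 0.05 (the lowest was 0.104). Over all genes 0.62% passed, which is 114 of 18394, and 2892 had an unadjusted p under 0.05. For the 6 times, the lowest adjusted p in limma was 0.211, for Ucp1, which was the 1 gene with an unadjusted p under 0.05 and which lay at background on most arrays. Here 0.0924% of all genes passed, or 17, and 3490 had an unadjusted p under 0.05.

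The median fitted peak over trough was 2.58-fold over the 10 genes and 1.19-fold over all genes tested. Without CT0 replicate 2 the median of the 10 genes was 1.69-fold, and with the slide as a fixed block 7.69-fold, so the fitted sizes were not steady. Lep had a fitted peak at CT 10.47 h with a fold of 5.58 (2.70 to 11.5 at 1 SE of the amplitude either way), and Adipoq one at 11.1 h with a fold of 3.03 (1.68 to 5.46). Without CT0 replicate 2 these folds were 3.23 and 1.67, and without CT0 replicate 1 that of Adipoq was 4.56. The Lep fold was 2.44 with the background subtracted by another method (normexp) and 2.37 in the authors' value table. With the slide as a fixed block the folds were 81.0 for Lep and 13.3 for Adipoq. The Adipoq means were 3.10 ± 2.42 at CT0 and 4.83 ± 1.27 at CT4 (SD, n = 2 each), so the 2 arrays of CT0 lay farther apart than any 2 time means. The SD of Adipoq between arrays of the same time was 1.22 log2 units and that of its time means 0.83. The median gene had 0.16 and 0.15, and 1.33% of all genes, or 245, had as large an SD within times as Adipoq. Of the 15 core clock and output genes, 13 passed the wave test, against 0.62% of all genes. Each slide held 2 neighbouring times, so the wave and the slide are partly confounded. With the slide as a fixed block, only 2 genes in all passed the wave test.

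**Figure D3:**
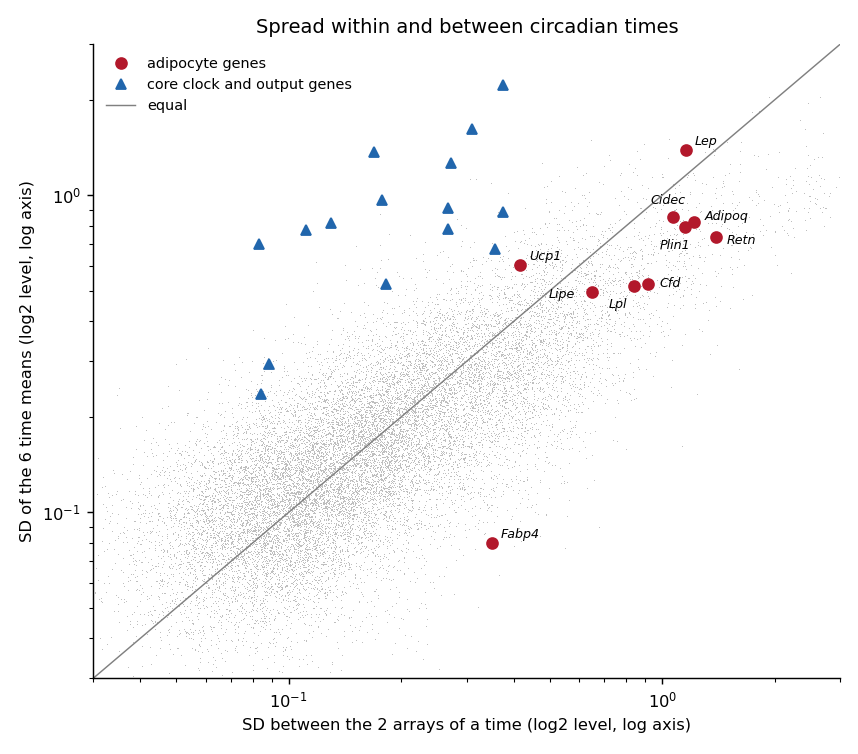
SD of a gene between the 2 arrays of a time (x axis) against the SD of its 6 time means (y axis), both in log2 units on log axes, for all genes tested (grey), the adipocyte genes (red circles) and core clock and output genes (blue triangles). Points below the line of equality vary more within than between times. All adipocyte genes but Lep and Ucp1 lie below the line, Adipoq at 1.22 within times and 0.83 between, and all clock genes lie above it.

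Whether the adipocyte genes moved together from array to array was asked by regressing every other gene on the Adipoq level over 12 arrays in limma. Of the other 9 adipocyte genes, 7 rose with Adipoq and none fell. These genes were chosen with earlier results of these data known, so the count is no separate test. Over all genes 0.701% rose (129 of 18393) and 0.0272% fell (5), so 134 genes or 0.729% co-varied in either direction. The count that fell was unsteady, at 0 without CT0 replicate 2, 24 without CT12 replicate 2, 12 with median scaling or normexp and 20 in the authors' value table. The median slope was 0.69 log2 units per log2 unit of Adipoq over the 9 genes and -0.01 over all genes. The median r was 0.943 over the 9 genes and -0.081 over all genes.

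The droplet proteins followed Adipoq nearly 1 for 1. Plin1 had a slope of 0.93 ± 0.06 (SE, n = 12; r = 0.976, rho = 0.937, limma adjusted p = 1.49e-05) and Cidec 0.92 ± 0.06 (r = 0.976, rho = 0.916). Of the hormones, Retn had a slope of 1.01 ± 0.08 (r = 0.965, rho = 0.895) and Lep 1.24 ± 0.13 (r = 0.943, rho = 0.909), while the protease Cfd had 0.69 ± 0.05 (r = 0.973, rho = 0.923). The lipases had shallower slopes, 0.62 ± 0.07 for Lpl (r = 0.942, rho = 0.881) and 0.51 ± 0.07 for Lipe (r = 0.908, rho = 0.832, limma adjusted p = 0.0039). The slopes were not tested against each other. With the background subtracted by another method (normexp) or in the authors' value table, the Lep slope was 0.66 and 0.63, and Lep still passed.

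Fabp4 and Ucp1 did not pass. Fabp4 had a slope of 0.14 ± 0.05 (r = 0.643, rho = 0.671, limma adjusted p = 0.331) and Ucp1 -0.03 ± 0.16 (r = -0.051, rho = -0.238, limma adjusted p = 0.973). Neither of the other 2 Fabp4 probes passed, with an r of 0.616 and 0.734. Ucp1 had no set direction, since its slope was 0.04 without CT0 replicate 1.

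Permutation of the arrays (100000 draws, two-sided) gave each of the 7 genes a p for r between 2e-05 and 9e-05, where 1e-05 is the smallest these draws can give, and an adjusted p over 18393 genes between 0.0167 and 0.0338. For Spearman's rho the adjusted permutation p was 0.0354 for Plin1 and between 0.0541 and 0.196 for the other 6. Without CT0 replicate 2 and CT12 replicate 2, the 2 arrays farthest from the median Adipoq level, r stayed between 0.853 (Lipe) and 0.952 (Plin1) for the 7 genes. All 7 calls held when any single array was left out. The count over all genes was less steady: 134 genes co-varied in the full set, 81 without CT0 replicate 2 and 68 without CT4 replicate 1.

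**Figure D4:**
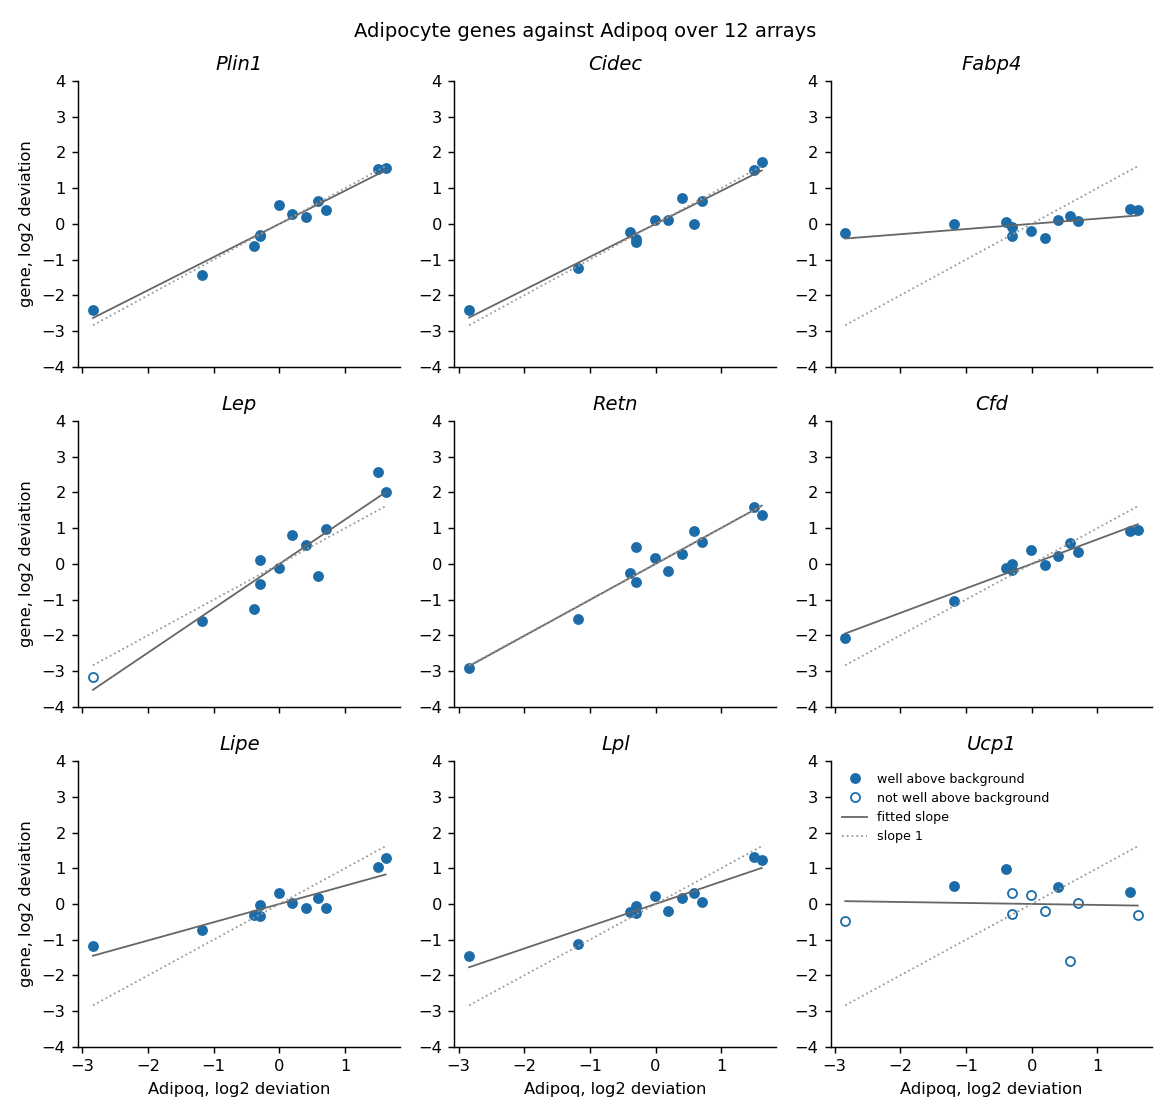
Deviation of each adipocyte gene from its mean (y axis, log2) against that of Adipoq (x axis, log2) on 12 arrays. Open circles are arrays on which the gene was not well above background, the solid line is the fitted slope and the dotted line a slope of 1. Plin1, Cidec and Retn lie along the dotted line, Lipe, Lpl and Cfd below its steepness, and Fabp4 and Ucp1 lie nearly flat.

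To leave out any course shared over the day, the regression was repeated with the 6 times as a factor, which uses only the difference between the 2 arrays of each time. Cfd, Cidec, Lep, Plin1 and Retn rose with Adipoq in this limma fit, 5 of 9 genes, against 0.207% of all genes (38). The other direction held 0.00544% of all genes, which is 1 gene. Their slopes were 0.74 ± 0.06, 0.84 ± 0.09, 0.92 ± 0.09, 0.93 ± 0.06 and 1.13 ± 0.07 (SE), with limma adjusted p from 0.0035 to 0.0307. Lpl had a slope of 0.65 ± 0.09 (limma adjusted p = 0.0649) on its representing probe and 0.66 ± 0.08 (0.0455) on its other one, and Lipe had 0.49 ± 0.08 (limma adjusted p = 0.116). With normexp and in the authors' value table Lep did not pass this fit and Lpl did. Leaving out 1 array in this fit also takes its partner out of the slope and leaves fewer residual degrees of freedom. Such fits thus show the loss of a whole time, not of 1 array alone. The count was lower in each of them. It was 0 without either CT0 array, 2 without either CT12 array and 3 without any 1 of the CT8, CT16 or CT20 arrays, while it was 4 without either CT4 array.

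The 3 slides each held 2 neighbouring times, and the slopes were also taken on the 4 arrays of each slide, with no test. For the 7 genes they ran from 0.48 to 1.18 on the slide with CT0 and CT4, from 0.53 to 1.28 on the slide with CT8 and CT12, and from 0.33 to 1.45 on the slide with CT16 and CT20, so each was positive on each slide. Ucp1 had 0.04, -0.30 and -0.25. With the slide as a block in limma, the same number of the adipocyte genes, 7 of 9, passed.

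With the Adipoq level as a covariate in the wave fit, none of the other 9 adipocyte genes had a 24 h wave, beside 0.332% of all genes (61 of 18393). Plin1 had an unadjusted p of 0.0339 in this fit, while no adipocyte gene was under 0.05 without the covariate. The fitted amplitude of Lep was 0.36 ± 0.22 log2 units with the covariate, against 1.24 ± 0.52 without it, and that of Cidec was 0.14 ± 0.11, against 0.83 ± 0.39 (SE). That of Fabp4 was 0.20 with the covariate against 0.07 without it, and that of Ucp1 0.35 against 0.30. The limma adjusted p-values with the covariate lay between 0.312 (Plin1) and 0.746 (Ucp1).

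Other genes of the adipocyte were followed in 5 lists, 3 of lipid pathways, 1 of transcription factors and insulin signalling and 1 of other adipokines and marker genes. Together these lists held 58 genes tested, of which 19, or 32.8%, rose with Adipoq, against 0.701% of all genes, and none fell. The lists too were chosen with earlier results of these data known, so this share describes them and is no separate test. Leaving out 1 array gave 9 to 19 such genes, with 9 without CT4 replicate 1, 10 without CT0 replicate 2 and 12 without CT12 replicate 2. Of the lipid droplet and lipolysis genes, 4 of 11 rose, which were Lgals12 (galectin-12, a lectin of lipid droplets), Aqp7 (the glycerol channel), Pnpla2 (the triglyceride lipase ATGL) and G0s2 (its inhibitor). In that order their slopes were 1.04 ± 0.10, 0.65 ± 0.07, 0.29 ± 0.04 and 0.46 ± 0.08 (SE, n = 12), and Lgals12, Aqp7 and Pnpla2 passed whichever array was left out. At the other end of that list, Mgll (monoglyceride lipase) had an r of 0.293 and Cav1 (caveolin-1, also abundant in endothelium and smooth muscle) an r of -0.433, and neither passed.

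Of the fatty acid uptake and triglyceride synthesis genes, 7 of 12 rose with Adipoq. They included Cd36 (a fatty acid transporter, slope 0.51 ± 0.05), Agpat2 (an acyltransferase of triglyceride synthesis, 0.42 ± 0.06), Slc27a1 (a fatty acid transport protein, 0.41 ± 0.06) and Gpd1 (glycerol-3-phosphate dehydrogenase, 0.88 ± 0.13). The count of 7 was 4 without CT4 replicate 1, and the calls of Cd36, Agpat2 and Slc27a1 held whichever array was left out. Angptl4, an inhibitor of lipoprotein lipase, had an r of 0.159 and Slc2a4, the insulin-responsive glucose transporter also made by muscle, an r of 0.057. Of the fatty acid synthesis genes, 3 of 10 rose, which were Scd1 (stearoyl-CoA desaturase, 0.60 ± 0.10), Thrsp (a lipogenic nuclear protein, 1.14 ± 0.22) and Mlxipl (the carbohydrate-responsive factor ChREBP, 0.69 ± 0.13). This count was 0 without CT0 replicate 2 or CT4 replicate 1, and 1 without CT8 replicate 2, either CT16 array or CT20 replicate 1. Elovl6 (a fatty acid elongase) and Me1 (malic enzyme) had r of 0.128 and -0.071.

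Of the transcription factors and insulin signalling genes, 0 of 10 passed in limma, which is near the share of all genes called, 0.729%. At an unadjusted p under 0.05 there were 4, or 40%, all with a positive slope, against 10.6% of all genes. Klf15 had the highest r of this list, 0.754, followed by Ebf2 at 0.660, Pparg at 0.642 and Cebpa at 0.638. Without CT0 replicate 2 and CT12 replicate 2 the r was 0.295 for Klf15 and 0.061 for Pparg, against 0.679 for Ebf2 and 0.625 for Cebpa. Insr, the insulin receptor, had an r of -0.135 and Cebpb one of -0.149. Of 15 other adipokine and adipocyte marker genes, 5 rose, among them Adig (adipogenin, slope 0.96 ± 0.07), Mrap (the melanocortin 2 receptor accessory protein, 1.08 ± 0.13), Car3 (carbonic anhydrase 3, 0.42 ± 0.08) and Orm1 (orosomucoid 1, 0.58 ± 0.11). Adig passed whichever array was left out. The count of 5 was 1 without CT0 replicate 2, 2 without CT4 replicate 1 or CT12 replicate 2, and 3 without CT0 replicate 1, CT4 replicate 2, CT8 replicate 2, CT16 replicate 1 or CT20 replicate 1.

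Of the brown and beige adipocyte genes, 0 of 11 passed in limma over the 12 arrays, which is near the share of all genes called, 0.729%. At an unadjusted p under 0.05 there were 2, or 18.2%, both with a positive slope, against 10.6% of all genes. They were Cox8b (a cytochrome c oxidase subunit of brown fat and muscle, slope 0.70 ± 0.14, limma adjusted p = 0.0511) and Cidea (0.33 ± 0.08, limma adjusted p = 0.142), which is also in the droplet list. The count that passed after adjustment was 1 without CT8 replicate 1 or CT12 replicate 2. Cox8b rose with Adipoq in the fit within times (limma adjusted p = 0.0085). That fit includes the CT0 arrays, on which Cox8b was at 0.68 in replicate 1 and -2.45 in replicate 2. Without CT0 replicate 2 the r over the arrays was 0.711 for Cox8b, against 0.817 with it, and 0.460 for Cidea, against 0.749. At the other end, Dio2 (the deiodinase that activates thyroid hormone) had an r of -0.348 and Prdm16 (a brown fat regulator) one of -0.524.

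**Figure D5:**
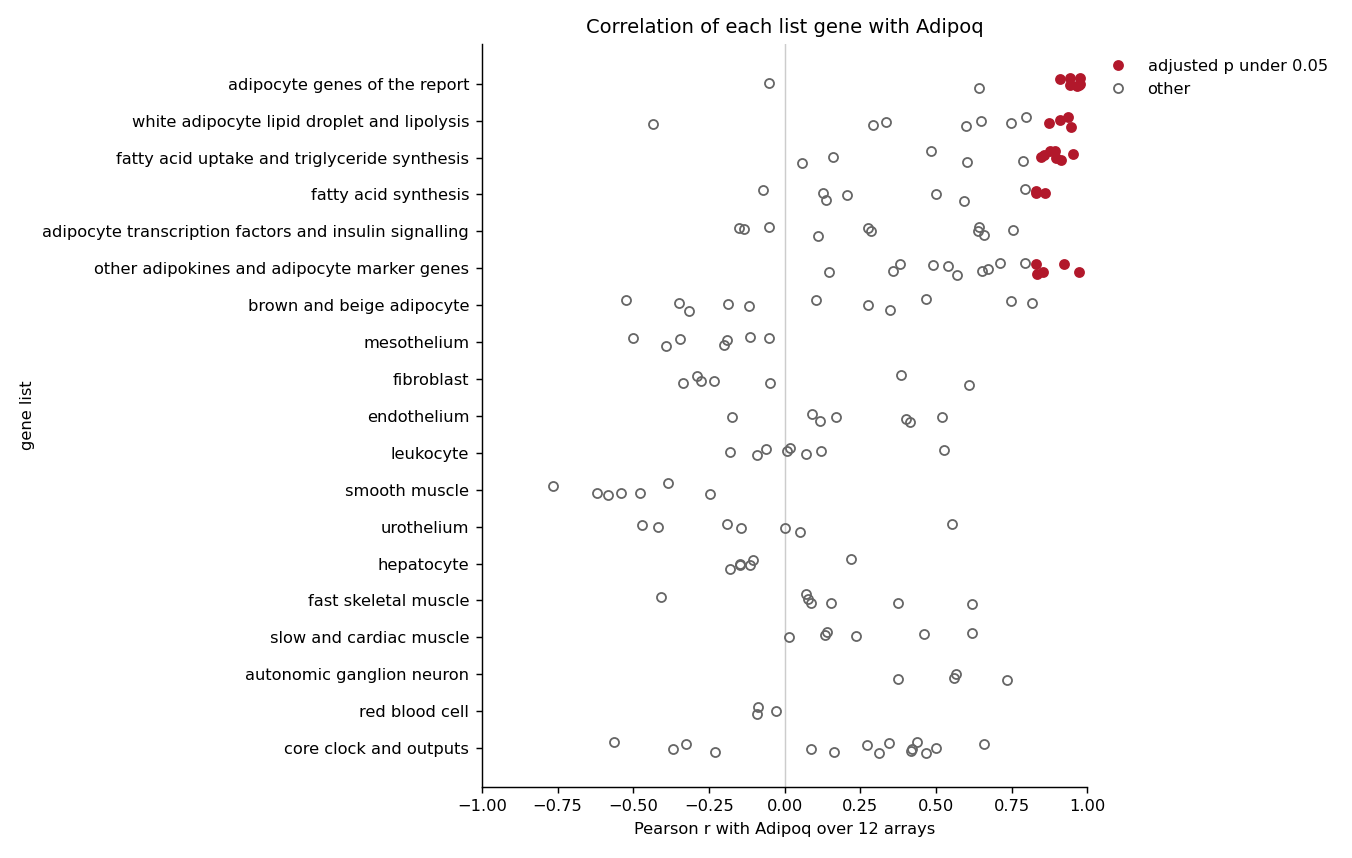
Pearson r of each gene with the Adipoq level over 12 arrays (x axis), by gene list (y axis). Filled red points passed the limma regression at an adjusted p under 0.05 and open points did not. Red points stand in the adipocyte gene row and in 4 of the 18 lists below it, and none in the lists of other tissues.

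None of the 69 genes tested in lists of other cell types, which were mesothelium, fibroblast, endothelium, leukocyte, smooth muscle, urothelium, hepatocyte, fast skeletal muscle, slow and cardiac muscle, autonomic ganglion neuron and red blood cell, co-varied with Adipoq in limma. At an unadjusted p under 0.05 there were 7 with a positive and 2 with a negative slope, 13.0% of them, against 10.6% of all genes. With 0.729% of all genes called, 0 of 69 is near the share of all genes. The 7 smooth muscle genes all had a negative r, between -0.764 (Smtn, smoothelin) and -0.247 (Myh11, smooth muscle myosin), and 2 of them had an unadjusted p under 0.05. Without CT0 replicate 2, on which this list was 0.44 log2 units high, the r was 0.0065 for Actg2 and 0.081 for Des. It stayed negative for the rest, from -0.416 (Smtn) to -0.037 (Myh11). Each r was thus weaker without that array, and the sign was no longer shared by all 7. The 7 genes of the mesothelium list had a median r of -0.200. Their mean levels ran from -2.87 (Lrrn4) to 6.31 (Krt19), and whether all of them came from the peritoneal lining was not tested. Of the 4 ganglion genes tested, 3 had an unadjusted p under 0.05 with a positive slope, with Dbh (dopamine beta-hydroxylase) at the highest r of 0.736. Dbh was well above background on 6 arrays and Phox2a on 4, so that their values on the other arrays are only upper bounds. Prph, with an r of 0.560, was well above background on all 12 arrays. Without CT0 replicate 2 the r was 0.650 for Prph, 0.590 for Dbh and 0.453 for Phox2a. Among the core clock and output genes, 0 of 15 co-varied with Adipoq, which is also near the share of all genes, and Cry2 had the highest r, 0.659.

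Over all genes tested, the 12 named genes whose pattern over the 12 arrays was most like that of Adipoq, apart from the adipocyte genes themselves and 2 transcripts without a gene symbol, had an r between 0.954 and 0.983. Mogat1 (monoacylglycerol acyltransferase 1) had the highest, 0.983, with a slope of 0.85 ± 0.05 (SE). Sucnr1 (the succinate receptor) followed with 0.979 and Adig with 0.974. Then came Amy2 and Amy1 (amylases, whose close sequences a probe may not tell apart) with 0.971 and 0.969, Ces1d (a carboxylesterase, Ces3 on the array) with 0.971, Igfals (the acid-labile subunit of the IGF complex) with 0.971 and Slc36a2 (an amino acid transporter) with 0.968. Serpina3c (a serine protease inhibitor) had 0.966, Cyp2e1 (a cytochrome P450) 0.966, Adhfe1 (an alcohol dehydrogenase family member) 0.957 and Abcd2 (a peroxisomal fatty acid transporter) 0.954. The 12 were picked by their r on these same arrays, so passing a regression on Adipoq was set by the choice. The fits within times and with 1 array left out reuse these arrays and are no separate test. All 12 passed limma's test over the 12 arrays, also with any 1 array left out. All 12 passed it within times too, but only 2 did so without either CT12 array, 4 without either CT4 array, 5 without either CT0 or either CT16 array, 6 without either CT8 array and 7 without either CT20 array. Without the 2 arrays farthest from the median Adipoq level their r lay between 0.850 (Abcd2) and 0.983 (Sucnr1).

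Among genes with a gene symbol, the 5 with the lowest r were Nol11, Copb2, Acbd3, Pls3 and Pold1, with r between -0.905 and -0.881. In the same range lay 1 transcript without a symbol, with an r of -0.895 and a slope of -0.18, which passed in limma at an adjusted p of 0.0198. The slopes of the 5 lay between -0.14 and -0.08, and of these 5 Pold1 (the catalytic subunit of DNA polymerase delta) passed in limma, at an adjusted p of 0.0398, and in 3 of the 12 fits that leave out 1 array. The 5 genes that fell as Adipoq rose were Pold1, Plxna4, Slc6a17, Tonsl and the same transcript without a symbol, the last 4 named after their values were seen.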

How the data were processed

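Total RNA was labelled with Cy3 and hybridised to Agilent 1-colour arrays, per the labels. Scanner files deposited by the authors give each spot's intensity, background-subtracted and detrended within each array by Agilent Feature Extraction 10.5.1.1, per the file headers, and not normalised between arrays. The authors' deposited value table holds log2 values of 27883 probes; its normalisation is not given in the sources used here (the submitters' processing notes name R 2.8.1), its column medians lie between 8.71 and 8.73, and it served as an alternative. Other deposited columns hold marks per spot, such as outlier or well above background.

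Outlier spots were left out, log2 signals averaged per probe and the array's 75th percentile subtracted. That percentile was 844 to 984 intensity units, 64.2% to 70.2% of spots were well above background and none was saturated. Probe coordinates are those of the array (mm7), with no annotation of that build to place them in exons. Names were updated through RefSeq (GRCm38.p6), 22783 probes by accession, 6632 by symbol and 3089 by synonym, and 8399 kept the array's name. The probe with the highest mean level stood for a gene with several, and genes well above background on at least 4 of 12 arrays were tested. The other probes of the 10 genes were fitted too.

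Fits used limma 3.58.1 in R 4.3.3 (lmFit and eBayes), with p-values adjusted by Benjamini-Hochberg over the whole set of genes and called under 0.05. They were a wave with a 24 h period, a 1-way fit over the 6 times, and a regression on the Adipoq level without and with the times as a factor. Code was tested on simulated data. Apart from the 10 genes, the text names, among genes with a gene symbol, the 12 with the highest and the 5 with the lowest r with Adipoq, and from each list up to 4 genes with the highest and up to 2 with the lowest r. The members and lists were chosen with earlier results of these data known. Same-numbered replicates of different times had correlations of their deviations from -0.201 to 0.443, with 10 of 15 pairs of times over 0.1. These values do not show that same-numbered arrays are unrelated. The numbers were not taken to pair samples, and fits with the number as a block are given below. Alternatives were the scaling, background correction, value table, filter, each array left out, replicate number or slide as a block, the Adipoq level as a covariate, and Plin1 or Cidec in place of Adipoq.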

Additional observations from a re-analysis of the deposited data

How the results depend on the processing

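The count of adipocyte genes with a 24 h wave, and of those differing between the times, was 0 under every setting run, over 10 genes except for 9 with the Adipoq covariate and 8 under a filter that kept genes detected above background on each of the 12 arrays. The count of 7 of 9 co-varying with Adipoq was the same except for 6 when genes had to be well above background on all 12 arrays, which leaves Lep untested. Genes co-varying with Adipoq, 134 in all, numbered 83 with no filter on dim probes and 68 to 130 with 1 array left out. The 5 adipocyte genes co-varying within times became 3 with no filter and 0 to 4 with 1 array left out, and the 39 genes of that fit became 15 with no filter, 24 with the replicate number as a block and 9 to 29 with 1 array left out. The Ucp1 slope on Adipoq lay between -0.27 and 0.038 with 1 array left out, and was positive at 0.038 without CT0 replicate 1, 0.0095 without CT12 replicate 2 and 0.015 without CT20 replicate 1. Over all genes, the 114 with a 24 h wave became 62 with median scaling, 50 with no filter, 171 in the authors' value table, 2 and 28 with the slide as a fixed and a random block, 61 with the Adipoq covariate and 42 to 104 with 1 array left out. The causes were not tested.

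With the replicate number as a block, 7 adipocyte genes co-varied with Adipoq over the 12 arrays and 4 within times, 95 genes co-varied in all, and 0 adipocyte genes and 92 genes in all had a 24 h wave. The numbers were not taken to pair samples. The slide as a random block was not run for the 1-way fit, since the times there already contain the slide. The 2 arrays a time, and for Ucp1 a signal near background on most arrays, limit which changes over the day could pass.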

Other observations

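The hepatocyte marker list, which no comparison above turns on, varied more over the arrays than the other lists of cell types. Its 6 genes tested averaged 3.07 log2 units above their mean over the 12 arrays on CT20 replicate 2 and 2.55 above it on CT12 replicate 2, and -2.45 on CT20 replicate 1 and -2.04 on CT0 replicate 1. The 2 arrays of CT20 thus held the highest and the lowest value. The list's median r with Adipoq was -0.131, and 0 of its 6 genes passed the regression on Adipoq in limma, with 0 at an unadjusted p under 0.05. The slow and cardiac muscle list had its lowest average, -1.08, on CT20 replicate 1 and its highest, 0.97, on CT4 replicate 1, arrays that were also near the ends for the adipocyte genes. On the arrays at the very ends for Adipoq, CT0 replicate 2 and CT12 replicate 2, the list averaged -0.22 and 0.09. The list's median r with Adipoq was 0.188. Of its 6 genes tested 0 passed in limma and 1 had an unadjusted p under 0.05.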
